A study of Mus musculus with 7 samples.

Results

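The tumour necrosis factor (TNF) superfamily was described in cells sorted from injured muscle as satellite cells, from mice kept in high carbon dioxide (hypercapnia, HC) or in room air (normocapnia, NC). The genes were chosen by symbol alone, as Tnf itself and every gene whose symbol starts with Tnfsf or Tnfrsf followed by a digit. That took 30 of the 23930 genes measured, of which 10 were ligands and 20 were receptors. Family genes that carry other symbols, such as Ltb, Fas and Cd40, were kept apart and are described with the signalling pathway.

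TNF superfamily ligands are mostly membrane proteins that act as trimers, and some are released from the cell surface by proteases. They bind cysteine-rich receptors that either recruit TRAF adaptors and switch on NF-kappaB, or carry a death domain that can start apoptosis, while decoy receptors bind ligand without signalling. In injured muscle, TNF comes largely from infiltrating macrophages, and the receptor Tnfrsf12a (Fn14) is carried by muscle precursor cells themselves.

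RNA was measured in 7 libraries, 3 of normocapnia (NC1 to NC3) and 4 of hypercapnia (HC1 to HC4). All came from male or female C57/B6 littermates that carried an inducible Pax7-GFP reporter, were given tamoxifen at 12 weeks of age, and spent the next 4 weeks in room air or in a chamber with 10% CO2 until 16 weeks. The study's methods add that cardiotoxin was injected into hind leg muscles and that the muscles of both hind legs were taken 3 days later, digested and sorted for GFP-positive cells, while a heading in the deposited table names 40 hours. Cre-ERT2 was expressed from the Pax7 locus and the reporter from a ubiquitous promoter, so that after recombination GFP marked cells that had expressed Pax7 and also their progeny. The strain label runs from C57BL/6 to C57BL/12 sample by sample. The sources do not say whether each library was 1 animal, so p-values measure the spread between these libraries.

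Values were reads scaled to library size (RPM) from a targeted panel with 1 amplicon per gene, which compares a gene between libraries but not genes with each other. Libraries held 14527445 to 23388710 reads, so that 1 read was 0.0428 to 0.0688 RPM and 3 reads, taken as the floor, 0.128 to 0.207 RPM. NC3 stood apart, with correlations of 0.827 to 0.883 with the other libraries across genes. Xist was at 445 to 701 RPM in NC1, NC2, HC1 and HC2 and at 0 to 0.125 RPM in the other libraries. The satellite cell marker Pax7 ran from 4.34 RPM in NC3 to 268 RPM in NC1, and the 7 satellite cell markers summed to 1417, 75.3 and 116 RPM in normocapnia and 216, 205, 663 and 481 RPM in hypercapnia. The 10 macrophage markers summed to 11646, 20304 and 34582 RPM in normocapnia and 19241 to 23869 RPM in hypercapnia, so RNA of macrophage markers was present in sorted cells of both groups. A single amplicon, Lyz2, made up most of each sum. Fewer cells of a type and less RNA per cell cannot be told apart in such bulk samples.

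Of the 30 genes, 10 had a mean of at least 10 RPM, 18 of at least 1 RPM and 12 less than that. Across all members the log2 fold change (hypercapnia over normocapnia, limma on log2(RPM + 1)) was positive for 17 and negative for 13, with a median of 0.11 beside 0.02 for all genes. Over the 18 members of at least 1 RPM the median was 0.25, beside 0.16 for all genes at that level. Scaling by the median of ratios in place of total reads moved the median over all genes at 1 RPM or more from 0.16 to 0.04. That of all 30 members, low ones included, moved from 0.11 to 0.05. On the recovered reads the members' median was negative, at -0.31 over the 23 that passed edgeR's filter, -0.13 over all 30 without it and -0.18 by DESeq2, beside -0.01, 0.00 and -0.04 for all genes at 1 RPM or more. The rule of the study calls a gene at an unadjusted p under 0.05 and a fold above 1.5, and by it 1 member of 30 was called, Tnfsf10, beside 2.57% of all genes (615 of 23930, of which 1.43% of all genes were higher and 1.14% lower). After adjustment limma called 0 of 30 members, beside 0% of all genes, with a lowest adjusted p of 0.841. Among members with an adjusted p in the count models, edgeR called 0 of 23, beside 0% of the 13293 genes past its filter, and DESeq2 called 0 of 21, beside 0.223% of the 13028 genes it adjusted. At an unadjusted limma p under 0.05 there were 2 members, beside 4.66% of all genes. The groups did not overlap for 2 members, Tnfsf10 and Tnfrsf4, beside 4.83% of all genes, and among the members with at least 1 RPM only for Tnfsf10, 1 of 18, beside 7.72% of genes at that level. What varied most was normocapnia itself. Among the 18 members with at least 1 RPM the median SD on the log2 scale was 0.82 in normocapnia and 0.33 in hypercapnia, beside 0.68 and 0.29 for all genes at that level, and the normocapnia SD was the larger for 15 of 18 (83.3%), beside 81.1% of those genes.

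**Figure D1:**
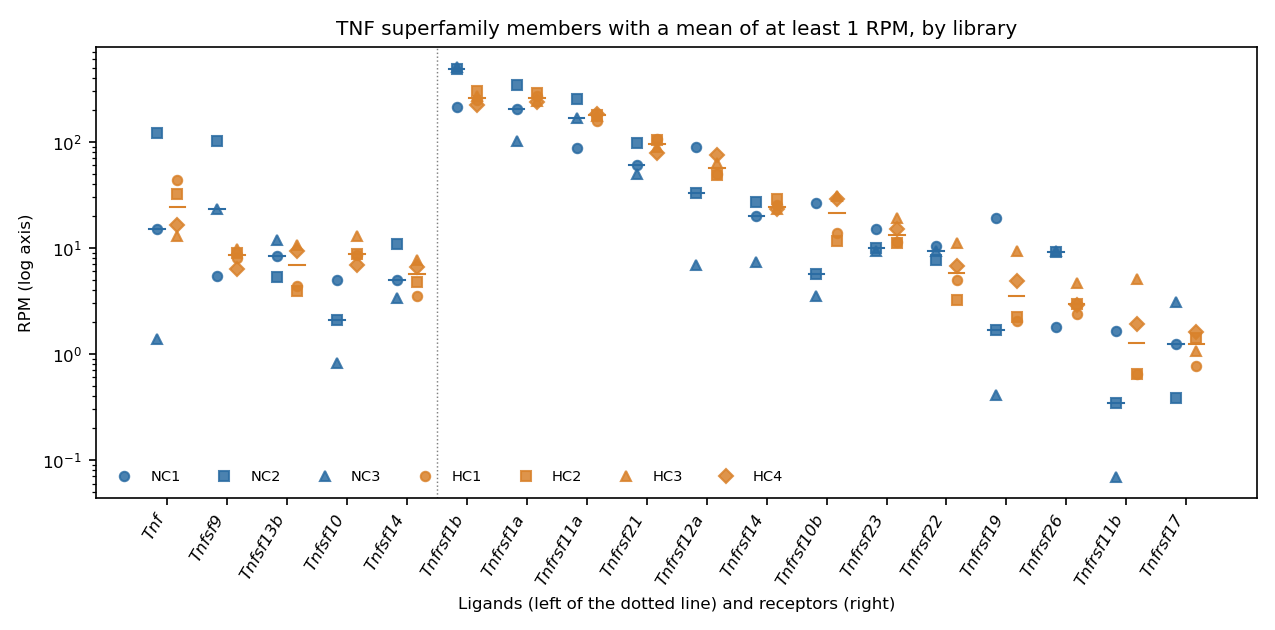
RPM (log axis) of the 18 members with a mean of at least 1 RPM in each of the 7 libraries, ligands left of the dotted line and receptors right. Each point is 1 library and each short line a group's median. The normocapnia points spread more widely than the hypercapnia points for 15 of the 18 genes, and Tnfsf10 is the gene whose groups do not overlap.

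Tnfsf10 encodes TRAIL, a ligand that can start apoptosis through death receptors and that is induced by interferons in macrophages and other immune cells. Its level was 4.95, 2.10 and 0.826 RPM in the normocapnia libraries. In hypercapnia it was 8.56, 8.79, 12.9 and 6.91 RPM. All 4 hypercapnia libraries lay above all 3 normocapnia libraries, with means of 9.28 ± 2.54 RPM (SD, n = 4) and 2.62 ± 2.11 RPM (SD, n = 3). Behind these levels were 12 to 111 reads in normocapnia and 102 to 206 in hypercapnia. The fold change was 3.12 (log2 1.64, SE 0.44, 95% confidence interval 0.55 to 2.73), with a limma p of 0.0109 and an adjusted p of 0.841. By edgeR the log2 fold change was 1.88 (p 0.00578, adjusted p 0.758), and by DESeq2 1.84 (p 0.000217, adjusted p 0.0712). Leaving out single libraries gave log2 values from 1.23 without NC3 to 2.08 without NC1, each still called, and of all 17 alternatives a block on the replicate number ended the call (1.76, p 0.0712). Within the libraries with high Xist (2 against 2) the difference was 1.17, and within those with low Xist (1 against 2) it was 2.52.

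Markers of other cells were set beside Tnfsf10, and 1 of them, Adgre1, also separated the groups. Of the 10 macrophage markers, 7 had a positive log2 fold change and only Adgre1 (F4/80) was called, at 109, 149 and 70.5 RPM in normocapnia and 392, 429, 151 and 184 RPM in hypercapnia (log2 1.31, SE 0.49, limma p 0.0403, adjusted p 0.915). The sum of those markers overlapped between the groups, both with all 10 and without Lyz2, which made up most of it. The other 9 summed to 3293, 6991 and 5474 RPM in normocapnia and to 7141, 7076, 4790 and 5263 RPM in hypercapnia. The 5 endothelial markers summed to 87.1 to 208 RPM in normocapnia, and to 56.5, 43.0, 481 and 374 RPM in hypercapnia. Among the 7 neutrophil markers, Csf3r was called higher by edgeR with its filter (log2 0.69, p 0.0424) and by DESeq2 (0.65, p 0.0471), with groups that overlapped. Ngp, with at most 2 reads in a hypercapnia library, was called lower by DESeq2 and by edgeR without the filter. Neither was called by limma. The part of macrophage, endothelial and neutrophil RNA in the Tnfsf10 difference was not tested.

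The promoter of Tnfsf10 is shown because this was the member called. The RefSeq promoter table (GRCm38.p6) held 24 of the 30 members, and the 250 bases before the start site of Tnfsf10 lie at chr3:27316827-27317076 on the plus strand. Capitals mark the letters AANNGAAA, the core that interferon regulatory factors read, searched on both strands after the sequences had been seen. It starts 53 and 30 bases before the start site.
Tnfsf10: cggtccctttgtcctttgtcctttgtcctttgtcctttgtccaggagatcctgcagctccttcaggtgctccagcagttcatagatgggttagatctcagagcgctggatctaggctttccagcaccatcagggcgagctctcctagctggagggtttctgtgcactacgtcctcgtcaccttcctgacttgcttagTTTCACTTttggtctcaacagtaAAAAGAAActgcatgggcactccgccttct
The same letters were in 11 of the 24 member promoters (45.8%) and in 23.9% of the 27025 promoters in the table. A match of letters is a description and not a binding site.

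Receptors of TRAIL did not separate the groups. Tnfrsf10b is its death receptor in the mouse, and was at 26.4, 5.64 and 3.51 RPM in normocapnia against 13.9, 11.6, 30.8 and 28.8 RPM in hypercapnia. Its log2 fold change was 1.13 (SE 0.74, limma p 0.179, adjusted p 0.915), and NC1 lay among the hypercapnia libraries. Without NC1 the value was 1.91 (p 0.0161) and the gene was called. Tnfrsf10b was highest in NC1, HC3 and HC4. Summed markers of satellite, endothelial, fibro-adipogenic, neutrophil, dendritic and T and NK cells were also highest there, as was the red blood cell marker Alas2. The part of any of those cells was not tested. Tnfrsf22 and Tnfrsf23 are mouse decoy receptors for TRAIL and lie with Tnfrsf26 in a row on chromosome 7. These related copies can share reads, so the split between them is uncertain. Tnfrsf23 was at 15.2, 9.92 and 9.43 RPM in normocapnia and 11.5, 11.0, 19.1 and 15.0 RPM in hypercapnia (log2 0.27, limma p 0.324). Tnfrsf22 was at 7.61 to 10.4 RPM against 3.22 to 11.2 RPM, and its log2 fold change of -0.53 (p 0.214) was called without HC3 (-0.80, p 0.0333). For Tnfrsf26, whose ligand is not established, the normocapnia levels were 1.78, 9.19 and 9.36 RPM and the hypercapnia levels 2.35 to 4.69 RPM (log2 -0.68, p 0.252). It was called without NC1 (-1.31, p 0.00319) and, with all libraries, by DESeq2 (-1.40, p 0.0447). Tnfrsf11b (osteoprotegerin), a secreted decoy for both TRAIL and the RANK ligand, was at 0.069 to 1.65 RPM in normocapnia and 0.642 to 5.12 RPM in hypercapnia, with its highest level in HC3.

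Tnf, the founding ligand and a macrophage product, was at 15.0, 120 and 1.38 RPM in the normocapnia libraries. The hypercapnia libraries held 43.8, 32.2, 12.9 and 16.6 RPM. Normocapnia supplied both the highest and the lowest library, NC2 and NC3, which lay 87.2-fold apart, and all hypercapnia values fell between them. The log2 fold change was 0.56 (SE 1.38, interval -2.88 to 4.00, limma p 0.699, adjusted p 0.993). Its sign depended on the fit: edgeR gave -0.79, DESeq2 gave -0.80 and the limma value without NC3 was -0.84, whereas without NC2 it was 1.99, none of them called. NC2 was also the highest library for 11 of 16 NF-kappaB target genes and 8 of 11 negative regulators. How many of all genes were highest in NC2 was not counted, so these counts cannot be set against that library as a whole. The other target genes were highest elsewhere, Ccl5 in NC1, Sod2, Bcl3 and Csf1 in NC3 and Cxcl10 in HC3. Nfkbia, the inhibitor that NF-kappaB induces, was at 3911 RPM in NC2 and at 691 to 1581 RPM elsewhere. Tnfaip3 (A20), another feedback inhibitor, was at 1167 RPM in NC2 and at 114 to 606 RPM elsewhere. The chemokine Cxcl1 was at 2091 RPM in that library and at 187 to 630 RPM in the others.

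The promoter of Tnf is shown for comparison with that of Tnfsf10. Its 250 bases lie at chr17:35202008-35202257 on the minus strand (RefSeq, GRCm38.p6). Capitals mark TATAAA, which starts 29 bases before the start site.
Tnf: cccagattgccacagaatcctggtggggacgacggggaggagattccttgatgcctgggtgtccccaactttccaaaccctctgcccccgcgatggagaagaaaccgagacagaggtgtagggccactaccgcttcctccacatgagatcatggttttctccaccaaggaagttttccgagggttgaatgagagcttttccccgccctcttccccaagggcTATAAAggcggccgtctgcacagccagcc
TATAAA was in 5 of the 24 member promoters (20.8%) and in 14.3% of all, searched on both strands. The interferon regulatory factor core and the NF-kappaB consensus had no match in this window of Tnf. That consensus was in 2 of the 24 (8.33%), Tnfrsf8 and Tnfrsf9, and in 4.46% of all promoters.

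TNF has a widely expressed receptor with a death domain, Tnfrsf1a, and one found mainly on leukocytes and endothelium, Tnfrsf1b. Tnfrsf1a was at 205, 346 and 101 RPM in normocapnia and 271, 290, 244 and 237 RPM in hypercapnia. Tnfrsf1b was at 213, 489 and 502 RPM in normocapnia and 246, 299, 268 and 222 RPM in hypercapnia. Neither passed the limma test: the log2 fold change was 0.43 for Tnfrsf1a (p 0.346) and -0.54 for Tnfrsf1b (SE 0.34, interval -1.38 to 0.31, p 0.168). Tnfrsf1a reached 0.85 and was called without NC2 (p 0.0457), and was at -0.04 without NC3. Tnfrsf1b was called without NC1 at -0.94 (p 0.00122, adjusted p 0.131). Libraries differed in the balance of the receptors. Tnfrsf1b over Tnfrsf1a was 4.99 in NC3 and 0.908 to 1.41 in the other libraries.

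**Figure D2:**
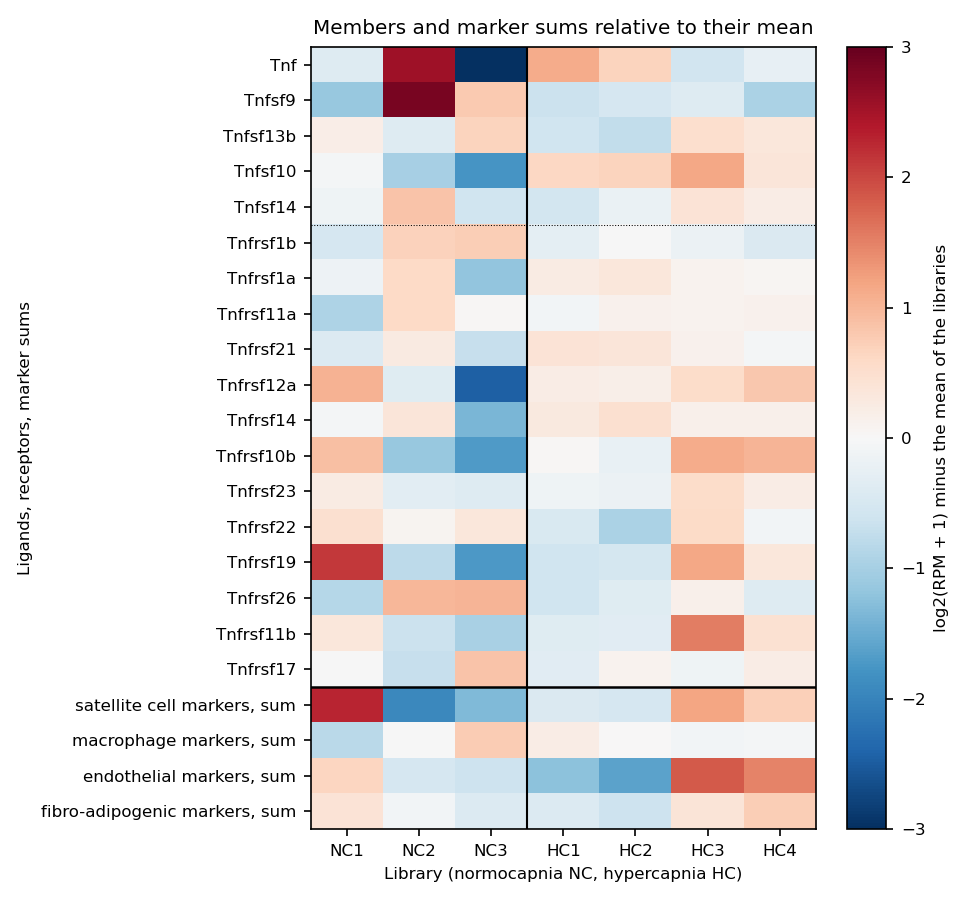
log2(RPM + 1) minus the mean of the 7 libraries (colour, ending at -3 and 3) for the 18 members with at least 1 RPM and, under the solid line, summed markers of 4 cell types. Columns are libraries, with normocapnia left of the vertical line. Among the members the strongest colours are in normocapnia: Tnf and Tnfsf9 are high in NC2, Tnfrsf19 is high in NC1, and Tnf, Tnfrsf12a and Tnfsf10 are low in NC3.

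Tnfrsf12a (Fn14) is the receptor of TWEAK and is induced in injured muscle. It was at 88.8, 33.0 and 6.95 RPM in normocapnia and 49.4, 48.1, 62.9 and 75.5 RPM in hypercapnia. The hypercapnia libraries lay between NC1 and the other normocapnia libraries, with a log2 fold change of 1.03 (SE 0.83, limma p 0.265, adjusted p 0.915). Without NC1 the value was 1.84 (p 0.0396), a call, and without NC3 it was 0.09. Its ligand, Tnfsf12, was not analysed here. Tnfrsf19 (TROY), a receptor known from neural and epithelial progenitors, was at 19.2, 1.67 and 0.413 RPM in normocapnia and 2.05, 2.21, 9.43 and 4.88 RPM in hypercapnia. NC1 was highest and NC3 lowest, and the log2 fold change of 0.22 (p 0.836) changed sign in 7 of 17 alternative fits. The satellite cell, myofiber and dendritic cell marker sums were also highest in NC1, as was the red blood cell marker Alas2. The part of any of those cells in the Tnfrsf12a and Tnfrsf19 levels was not tested. Tnfrsf21 (death receptor DR6) was at 60.8, 97.2 and 50.0 RPM in normocapnia and 107, 104, 88.8 and 78.3 RPM in hypercapnia. Only NC2 reached the hypercapnia range, and the log2 fold change was 0.49 (limma p 0.106), or 0.76 and called without NC2 (p 0.00833).

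Tnfrsf11a (RANK) is the receptor through which monocytes and macrophages are driven to become osteoclasts. It was at 86.6, 251 and 168 RPM in normocapnia and 156, 179, 176 and 181 RPM in hypercapnia. The hypercapnia libraries lay within the normocapnia range, at a log2 fold change of 0.16 (interval -0.73 to 1.06, limma p 0.668) that turned to -0.15 by edgeR, -0.20 by DESeq2 and -0.25 without NC1. Its ligand Tnfsf11 (RANKL) had 12 reads in NC1, 0 in the other normocapnia libraries and 0 to 4 in hypercapnia.

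Several ligands are known as costimulators of T cells. Tnfsf9, which antigen-presenting cells display, was at 5.44, 102 and 23.3 RPM in normocapnia and 8.05, 8.94, 9.81 and 6.36 RPM in hypercapnia. NC2 and NC3 were above, and NC1 below, all hypercapnia libraries. The limma log2 fold change was -1.46 (SE 0.93, interval -3.78 to 0.86, p 0.172, adjusted p 0.915). The count models called it, at -2.54 by edgeR (p 0.0126, adjusted p 0.758) and -2.57 by DESeq2 (p 0.00136, adjusted p 0.199). Without NC1 limma gave -2.44 (p 0.0138), a call, and without NC2 -0.44. Tnfsf14 (LIGHT) was at 3.37 to 11.0 RPM in normocapnia and 3.51 to 7.69 RPM in hypercapnia (log2 -0.08), within the normocapnia range. Its receptor Tnfrsf14 (HVEM) was at 19.8, 26.9 and 7.43 RPM in normocapnia and 25.6, 29.1, 23.1 and 23.4 RPM in hypercapnia (log2 0.62, limma p 0.193), overlapping through NC2. Tnfsf18, Tnfsf15 and Tnfsf8 had means of about 1 RPM or less. Tnfsf15 (TL1A) was at 0.714, 0.128 and 0 RPM in normocapnia and 1.28, 0.955, 0.687 and 0.339 RPM in hypercapnia (log2 0.52, p 0.102), and was called without NC1 (0.75, p 0.0295) and with Xist as a covariate (0.62, p 0.0246). Tnfsf18 (GITR ligand) was at 0.855 to 1.79 RPM and 0.135 to 1.16 RPM (log2 -0.55, p 0.122), and Tnfsf8 (CD30 ligand) at 0.069 to 2.10 RPM and 0.406 to 1.11 RPM (log2 0.16).

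Receptors of these costimulators that lymphocytes carry had few reads. Tnfrsf4 (OX40) had 13, 11 and 8 reads in normocapnia and 8, 4, 7 and 4 reads in hypercapnia, or 0.470 to 0.580 RPM against 0.201 to 0.437 RPM. The groups did not overlap in RPM, but the log2 fold change of -0.23 (SE 0.07, limma p 0.0177, adjusted p 0.911) was under the fold threshold, and DESeq2 gave p 0.247 on the reads. With a pseudocount of 0.1 RPM the value was -0.65 and the gene was called (p 0.0241). Tnfrsf9 had 4 to 21 reads, Tnfrsf18 had 2 to 16 and Tnfrsf8 had 0 to 7 across the libraries. Tnfrsf25, the receptor of TL1A, was at 0.620 to 1.80 RPM in normocapnia and 0.471 to 1.49 RPM in hypercapnia. The 8 markers of T and NK cells summed to 3.24 to 13.6 RPM in normocapnia and 9.76 to 15.4 RPM in hypercapnia.

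B cell survival runs through the ligand Tnfsf13b (BAFF) and its receptors. Tnfsf13b, which myeloid cells make, was at 8.39, 5.26 and 11.9 RPM in normocapnia and 4.37, 3.92, 10.6 and 9.41 RPM in hypercapnia. The groups overlapped (log2 -0.28). Its receptors were low: Tnfrsf17 (BCMA) was at 0.385 to 3.10 RPM in normocapnia and 0.770 to 1.63 RPM in hypercapnia, Tnfrsf13c (BAFF receptor) had 1 to 10 reads in a library, and Tnfrsf13b (TACI) had at most 2. Tnfrsf13b was the only member at or under 3 reads in every library. The remaining ligand, Tnfsf4 (OX40 ligand), had 0 to 14 reads in normocapnia and 3 to 16 in hypercapnia.

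**Figure D3:**
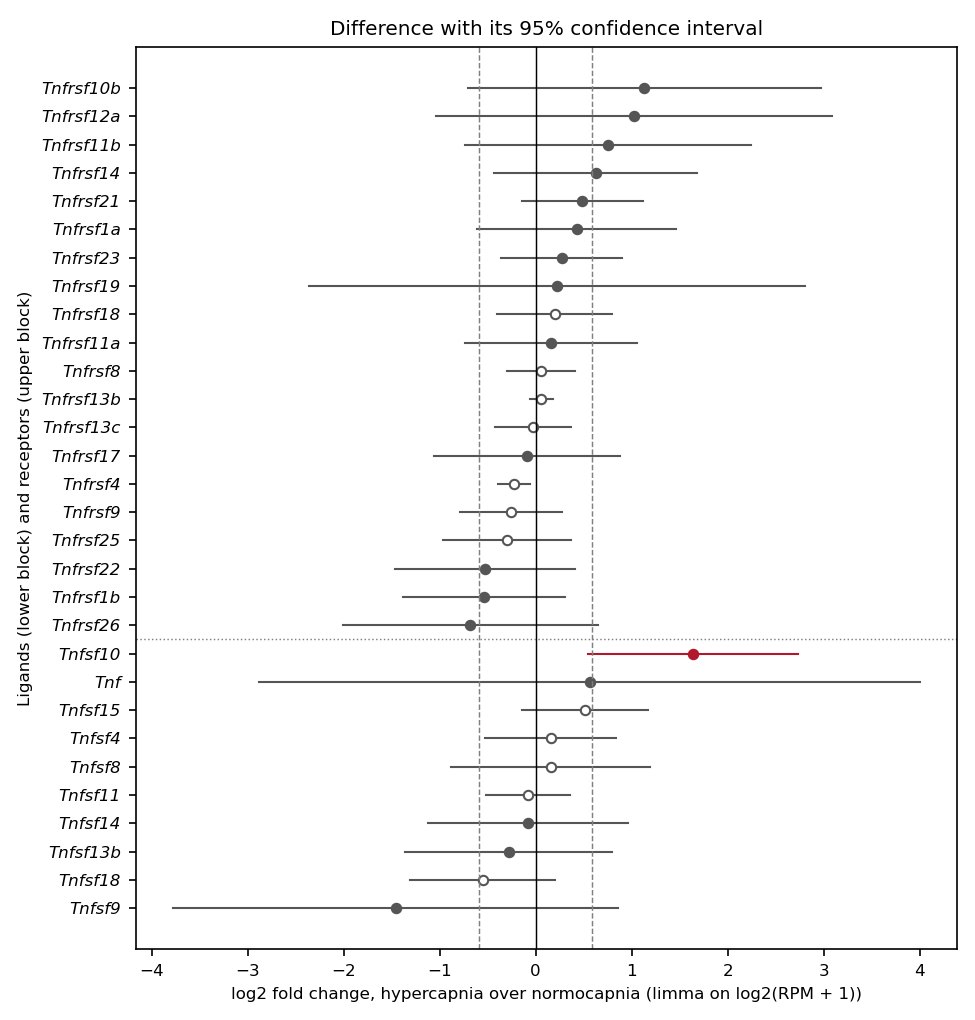
log2 fold change (hypercapnia over normocapnia, limma on log2(RPM + 1)) of each member as a point with its 95% confidence interval as a bar, ligands in the lower block and receptors in the upper, red where called, open where the mean was under 1 RPM, with dashed lines at a fold of 1.5. The interval of Tnfsf10 runs from 0.55 to 2.73, and that of Tnf is wide, from -2.88 to 4.00.

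How many members were called turned on NC1. Leaving it out gave 8 called members of 30 (26.7%), beside 8.32% of all genes, which were Tnfrsf10b, Tnfrsf12a, Tnfsf10, Tnfsf15 and Tnfsf8 higher and Tnfrsf1b, Tnfrsf26 and Tnfsf9 lower in hypercapnia. After adjustment 0 of the 30 were under 0.05 in that limma fit, where the lowest adjusted p was 0.131. Without NC2 the count was 3 beside 5.04% of all genes. Leaving out NC3, HC1, HC2 and HC4 each left 1, beside 2.57%, 1.61%, 1.57% and 1.99% of all genes, and leaving out HC3 gave 2 beside 2.39%. On the recovered reads edgeR called 2 of the 23 members that passed its filter on low counts, beside 6.03% of genes, or 2 of 30 without the filter, beside 4.38%, and DESeq2 called 3 of 30, beside 6.25%. The pseudocount of 0.1 RPM gave 2 (3.52% of all genes) and Xist as a covariate gave 2 (5.5%), while a block on the replicate number gave 1 (2.5%). NC3 was the lowest library for 11 of the 18 members with at least 1 RPM, and for 10 of the 18 both the highest and the lowest library were normocapnia, beside 5228 of 12504 genes at that level.

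**Figure D4:**
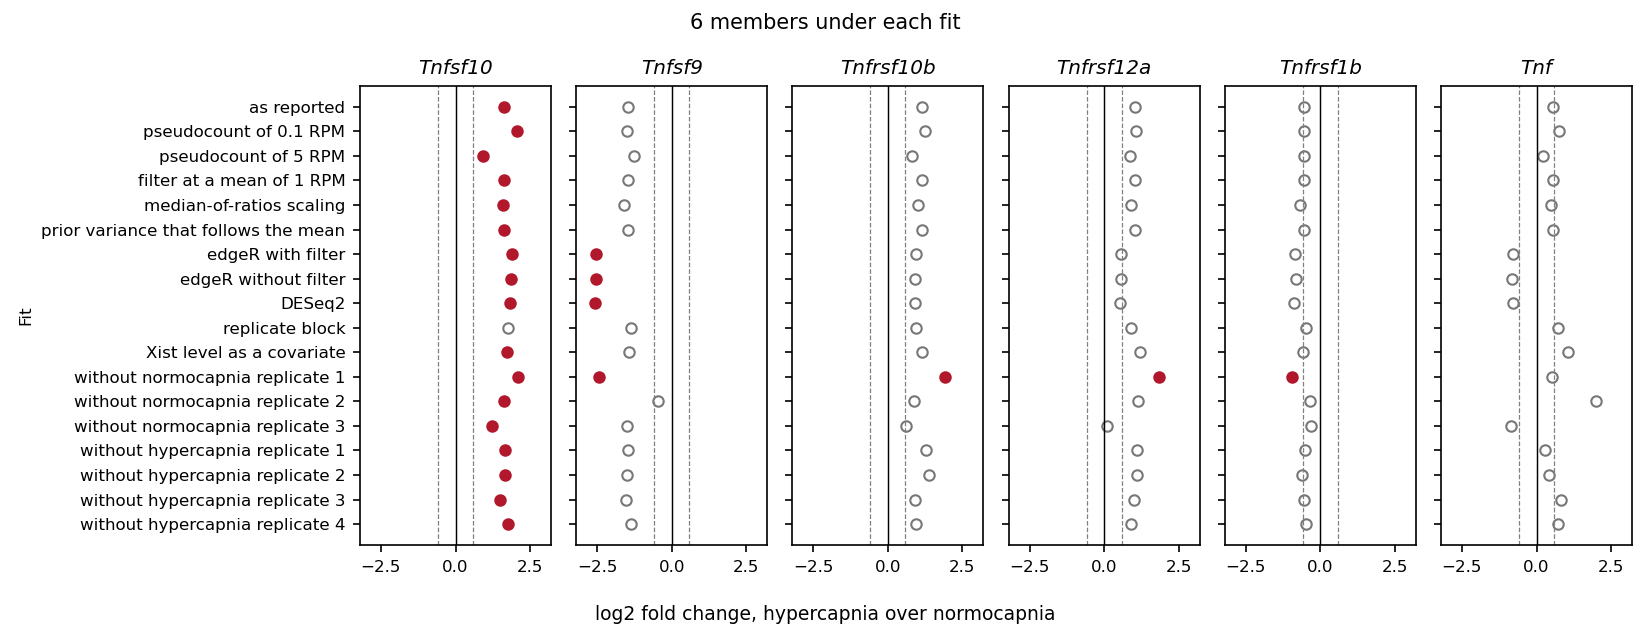
log2 fold change (hypercapnia over normocapnia) of 6 members under the reported fit and each of the 17 alternatives. Each point is 1 fit, filled red where the gene was called, and dashed lines mark a fold of 1.5. Tnfsf10 stays between 0.93 and 2.08, while the Tnf points lie on both sides of 0.

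The signalling pathway around the family was followed in 77 genes, of 81 listed, and 4 were not analysed here. By the same rule 2 were called (2.60%, beside 2.57% of all genes), Cxcl10 higher and Birc3 lower, none after adjustment (lowest limma adjusted p 0.827), and 7 had an unadjusted p under 0.05, beside 4.66% of all genes. That count of 2 was not stable, and ran from 1 to 12 when single libraries were left out, with 12 without NC2 (beside 5.04% of all genes). The log2 fold change was positive for 41 and negative for 36, with a median of 0.05. Birc3 (cIAP2), a ubiquitin ligase bound to TRAF2 that NF-kappaB also induces, was at 44.8, 76.5 and 75.1 RPM in normocapnia and 45.9, 35.3, 47.6 and 36.8 RPM in hypercapnia. NC1 lay within the hypercapnia range, and the log2 fold change was -0.62 (SE 0.23, limma p 0.0401, adjusted p 0.915). The Birc3 call was lost in 10 of 17 alternatives, among them those without NC2 (p 0.126), NC3 (p 0.125), HC1 (p 0.0578), HC2 (p 0.0923) and HC4 (p 0.0917) and median-of-ratios scaling (p 0.105).

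Among ligands and receptors with other symbols, 0 of 13 measured were called and 0 had a limma p under 0.05. Ltbr, which binds lymphotoxin and LIGHT, was at 115, 143 and 68.1 RPM in normocapnia and 93.8 to 103 RPM in hypercapnia (log2 -0.06). The ligand Eda was at 0.275 to 5.40 RPM in normocapnia and 0.556 to 2.98 RPM in hypercapnia (log2 0.16). Fas ligand (Fasl) was limited to 1 read in 1 library, while its receptor Fas, at 10.5 to 27.5 RPM in normocapnia and 14.4 to 15.8 RPM in hypercapnia, overlapped between the groups.

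Of the 20 adaptors and kinases, 1 was called, Birc3, with a list median of -0.16. For Tab2, a partner of the kinase TAK1, the log2 fold change was 0.59 (limma p 0.233). Chosen after their values were seen, the signalling genes Traf6 (log2 -0.40, p 0.0160), Tab3 (-0.42, p 0.00961) and Ikbkg (-0.37, p 0.0405) and the inhibitors Tnip1 (-0.52, p 0.0158) and Tnip2 (-0.54, p 0.0341) were lower in every hypercapnia library than in any normocapnia library, all under the fold threshold in limma and none after adjustment. Tnip1 was called by edgeR with its filter (-0.67, p 0.0404) and by DESeq2 (-0.71, p 0.0243) but not by edgeR without the filter (p 0.0587), and DESeq2 also called Tnip2 (-0.77, p 0.0409). Counting these, 5 pathway genes lay lower without overlap and 1 higher, 6 of 77, beside 4.83% of all genes and 7.72% of those at 1 RPM or more.

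**Figure D5:**
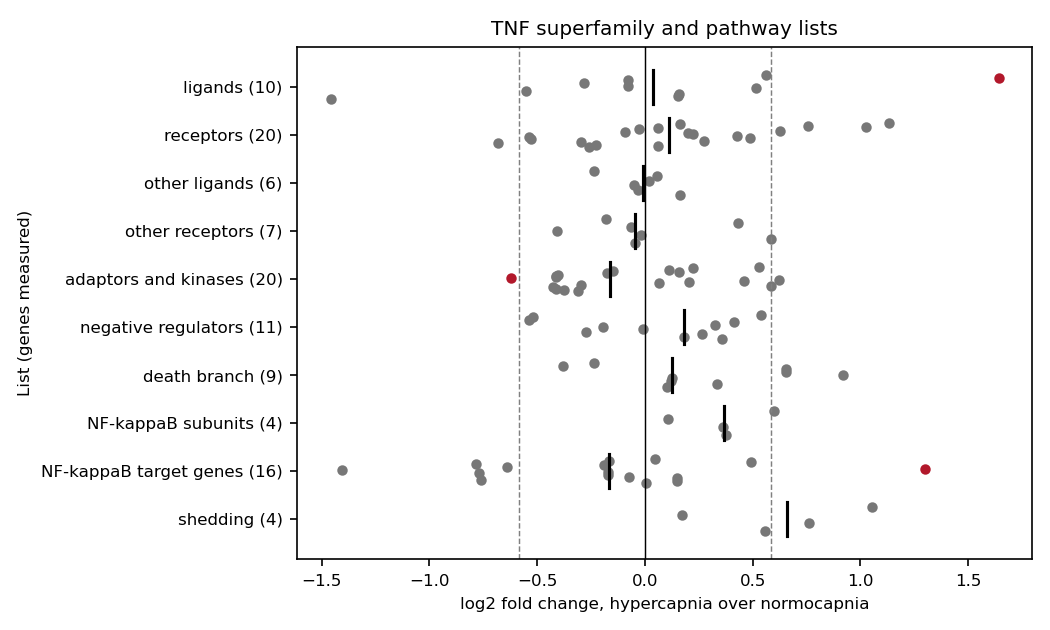
log2 fold change (hypercapnia over normocapnia) of each gene as a point, red where called, with genes grouped by list, each list's median as a black bar and dashed lines at a fold of 1.5. The medians lie between -0.17 for NF-kappaB target genes and 0.66 for the shedding genes.

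Of the 11 negative regulators limma called 0, at a list median of 0.18, edgeR with its filter called Tnip1 and DESeq2 called Tnip1 and Tnip2. Zfp36, which destabilises Tnf mRNA, was at 1498, 4185 and 939 RPM in normocapnia and 2842, 2935, 1782 and 1931 RPM in hypercapnia (log2 0.36). The 9 genes of the death branch had 0 calls and a median of 0.13. The 4 NF-kappaB subunit genes had 0 calls and a median of 0.37, with Nfkb2 at 0.60 (limma p 0.190). Of 16 NF-kappaB target genes limma called 1, Cxcl10, at a list median of -0.17. This chemokine was at 68.9, 79.4 and 24.5 RPM in normocapnia and at 151, 86.7, 187 and 109 RPM in hypercapnia (log2 1.30, SE 0.50, limma p 0.0435, adjusted p 0.915), with no overlap between the groups. Its call was lost in 6 of 17 alternative fits, among them those without NC1 (p 0.0562), NC3 (log2 0.78, p 0.0822), HC1 (p 0.0959), HC3 (p 0.0983) and HC4 (p 0.0696). The monocyte chemokine Ccl2 was at 451, 2701 and 2559 RPM in normocapnia and 1848 to 2599 RPM in hypercapnia (log2 0.49). Il6 was at 4.73, 44.3 and 11.6 RPM in normocapnia and 1.46 to 10.4 RPM in hypercapnia (limma log2 -1.40, p 0.159). In this list edgeR and DESeq2 each called 1 gene higher, Cxcl10, and 3 lower, Il6, Sod2 and Bcl3, of 16, beside 6.03% of all genes tested by edgeR with its filter, 4.38% without it and 6.25% by DESeq2, with Il6 at -2.09 by edgeR (p 0.0322, adjusted p 0.758) and -2.12 by DESeq2 (p 0.00937, adjusted p 0.372). The 4 genes listed for shedding of TNF and its receptors, the proteases Adam17 and Adam10 and the inactive rhomboids Rhbdf1 and Rhbdf2, had 0 calls and a median of 0.66, and Rhbdf2, which carries the sheddase Adam17 to the surface, was at 0.56 (p 0.164), or 0.98 and called without NC2 (p 0.000441).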

How the data were processed

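The deposited table, per the labels and methods, came from an Ion AmpliSeq mouse transcriptome panel in which 1 amplicon stands for a gene, and the authors gave RPM values (reads scaled to library size) for 23930 genes in 7 libraries. For the aligner and build, the name is not given in the sources used here. Dividing by the value of 1 read gave whole numbers in 100% of cases (tolerance 0.05 reads), so reads were recovered for count models; totals were 14527445 to 23388710 reads, floors cover counting error only, and confidence intervals are limma's, from the spread between libraries. No 2 libraries agreed within sampling noise.

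Groups came from the sample labels. The main test was limma 3.58.1 (R 4.3.3) on unfiltered log2(RPM + 1) values, with Benjamini-Hochberg adjustment over all 23930, and a fold change on that scale understates changes of low genes. A call was an unadjusted p under 0.05 with a fold above 1.5, after the study's own rule. Alternatives used pseudocounts of 0.1 and 5 RPM, scaling by the median of ratios, a trended prior, leaving out genes whose mean was under 1 RPM, edgeR 4.0.16 (quasi-likelihood), DESeq2 1.42.0, a replicate block, Xist as a covariate, and each library left out. The scripts were tested on simulated data. Named members were those with a mean of at least 10 RPM, those called and those of at least 1 RPM whose groups did not overlap; all other members were named too, outside that rule. From each pathway list the called genes (at most 3) and the one with the highest mean RPM (no ranking of transcript levels) were named, except 1 that is not reported here, and others were chosen after their values were seen. Members and lists were chosen with earlier results of these data known. Promoters came from RefSeq (GRCm38.p6).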

Additional observations from a re-analysis of the deposited data

Results flagged for a closer look

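Among 40 genes described, the 4 hypercapnia libraries were checked for a single library far from the others, which chance alone gives in about 1 in 20 genes, and 2 were found. Tnfrsf25 was at 1.49 RPM in HC4 and at 0.471 to 0.603 RPM in the other hypercapnia libraries. Ccl2 was at 2599 RPM in HC1 and at 1848 to 1958 RPM in the others. Groups of 3 libraries were not checked, so normocapnia was not examined in this way.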

How the results depend on the processing

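The number of called members, 1 as reported, was 2 with a pseudocount of 0.1 RPM, with edgeR with or without a filter, and with Xist as a covariate, and 3 with DESeq2. It ran from 1 to 8 when single libraries were left out, with 8 without NC1, 3 without NC2 and 2 without HC3. Of 77 pathway genes, 2 were called as reported, 1 with a pseudocount of 5 RPM (beside 1.83% of all genes) or the filter at 1 RPM (4.46%), 6 with edgeR with a filter (6.03%) and 5 without (4.38%), 7 with DESeq2 (6.25%), 6 with Xist as a covariate (5.5%), and 1 to 12 with single libraries left out, with 8 without NC1 (8.32%) and 12 without NC2 (5.04%). The sources do not say whether replicate numbers pair the samples, and HC4 has no partner. Same-numbered libraries correlated at -0.35, 0.50 and -0.04 in their deviations from group means, which cannot decide it. Their Xist levels matched, high in NC1 and HC1, high in NC2 and HC2, and low in NC3 and HC3. With the replicate block 1 member was called, Tnfsf15 (log2 0.65, p 0.0152), and Tnfsf10 was at 1.76 (p 0.0712), while 2 pathway genes were called, Cd40 and Mlkl. Tnfsf10 was called in 16 of 17 alternatives. For the single named genes, 19 values under an alternative gained a call, 17 lost one (10 for Birc3, 6 for Cxcl10 and 1 for Tnfsf10), 625 did neither, and no call turned its direction. The cause of these shifts was not tested. Genes with a few reads, such as Tnfrsf4, Tnfrsf8 and Tnfrsf13b, are limited by depth.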
